A study of Mus musculus with 96 samples.

Results

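The immediate early response genes Fos, Fosb, Jun, Junb, Egr1, Egr2, Ier2, Nr4a1 and Dusp1 were followed across 2 fat depots of the mouse. These 9 symbols were chosen by name, with earlier results of these data known, out of 29072 symbols with an Entrez identifier in the deposited table. Each was represented by its transcript row of highest mean over all 96 libraries. All 9 were measured in every group and entered every test. Male C57BL/6J mice that were Ucp1-KO or wild-type gave the RNA, taken from the interscapular brown depot (iBAT, brown fat) and the inguinal white depot (iWAT, white fat). Uncoupling protein 1, the product of Ucp1, lets the mitochondria of brown adipocytes release energy as heat. Mice of each genotype spent 4 weeks either at 20 °C on control diet, with fat supplying 13% of its energy, or at 30 °C, near thermoneutrality, on high fat diet, with fat supplying 48%, or at 30 °C on control diet. Each of these 6 combinations had 8 animals, and each of the 12 groups of depot, genotype and condition held 8 libraries. The 48 animals thus gave both depots, and the labels do not pair the depots of an animal. Libraries are called by the numbers 1 to 96 of their labels. Neither batches, ages nor the deleted stretch of Ucp1 are given by the labels.

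Immediate early genes are transcribed within minutes of a stimulus, without new protein synthesis, and their short-lived mRNAs decay quickly afterwards. Serum response factor acting at CArG boxes and CREB acting at cAMP response elements are their best known activators, and growth factors, cell stress, adrenergic stimulation and the handling of tissue are known inducers. Fos and Fosb proteins pair with Jun and Junb proteins to form the AP-1 transcription factor. Egr1 and Egr2 encode zinc finger transcription factors, Nr4a1 an orphan nuclear receptor (Nur77) that adrenergic signals induce in brown fat, Ier2 a nuclear protein and Dusp1 a phosphatase that switches off stress-activated MAP kinases.

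Promoter sequence from RefSeq (build GRCm38.p6) was searched for Fos, Fosb, Jun, Junb, Egr2, Nr4a1 and Dusp1, with 5 start sites for Egr2. Ier2 had no entry there. Egr1 was left out of the search, so its promoter is not reported here. The 250 bases before each start were searched on both strands. The core TGACG of the cAMP response element was found for 6 of these 7 genes, Jun being the exception, against 17.8% of all 32851 windows of the same length. The shares given are of single windows, whereas a gene was counted when any of its windows matched. With 5 windows Egr2 thus had more room for a match. The full element TGACGTCA, which holds overlapping cores on both strands, was found for Dusp1, against 1.55% of all windows. A CArG box was found for Egr2, in 4 of its 5 windows, against 1.47% of all windows. The Egr2 windows that begin at 67537619, 67537620 and 67537680 overlap and hold the same box. The window that begins at 67537316 holds a different one. The EGR site GCGNGGGCG was found for Fosb and Nr4a1, against 4.70% of all windows, and TATAAA for Fos, against 12.4%. The AP-1 site TGANTCA, present in 6.75% of all windows, was found in none of the windows of these 7 genes. A match describes the letters in the window and says nothing of a factor bound there. The windows of Fos (chr12:85473640-85473889, plus strand), Egr2 (chr10:67537619-67537868, plus strand), Nr4a1 (chr15:101266596-101266845, plus strand) and Dusp1 (chr17:26508473-26508722, minus strand) are printed because they hold the repeated or full elements. They run 5′ to 3′ up to the start site, and capitals mark TGACG or its reverse complement and the CArG box of Egr2.
Fos: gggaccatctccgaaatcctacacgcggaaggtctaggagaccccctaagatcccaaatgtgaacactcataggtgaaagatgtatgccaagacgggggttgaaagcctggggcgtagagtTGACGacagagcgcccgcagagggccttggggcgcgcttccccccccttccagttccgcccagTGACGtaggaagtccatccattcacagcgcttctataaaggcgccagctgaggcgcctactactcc
Egr2: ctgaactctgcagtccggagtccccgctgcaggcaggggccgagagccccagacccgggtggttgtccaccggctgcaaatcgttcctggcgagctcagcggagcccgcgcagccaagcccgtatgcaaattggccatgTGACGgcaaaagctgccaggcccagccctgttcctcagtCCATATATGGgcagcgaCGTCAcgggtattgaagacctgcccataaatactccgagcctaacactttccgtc
Nr4a1: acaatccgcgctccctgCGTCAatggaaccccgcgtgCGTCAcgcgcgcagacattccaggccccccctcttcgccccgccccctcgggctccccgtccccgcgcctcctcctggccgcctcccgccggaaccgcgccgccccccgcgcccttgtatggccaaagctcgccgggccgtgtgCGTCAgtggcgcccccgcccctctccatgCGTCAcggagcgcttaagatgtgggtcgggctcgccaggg
Dusp1: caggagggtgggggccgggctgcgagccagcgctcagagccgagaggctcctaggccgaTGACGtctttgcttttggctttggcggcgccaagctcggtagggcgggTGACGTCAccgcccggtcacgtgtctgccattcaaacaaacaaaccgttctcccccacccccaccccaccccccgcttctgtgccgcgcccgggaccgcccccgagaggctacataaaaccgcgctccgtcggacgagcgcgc

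Values are RPKM, a read density scaled to transcript length and library size, so levels of different genes can be compared per length. The number of reads behind a library, recovered from the spacing of its low values, ran from 8.90 to 19.2 M (mega) with a median of 11.8 M. Ucp1 itself was listed at 867 to 1145 RPKM in Ucp1-KO iBAT at 20 °C, against 2428 to 4549.5 RPKM in wild-type iBAT at 20 °C, and at 564 to 1112 RPKM in Ucp1-KO iBAT at 30 °C, against 7328 to 9281 RPKM in wild-type iBAT at 30 °C. Its level was thus below wild-type in every Ucp1-KO library of these groups but not at 0. In wild-type iBAT the Ucp1 level was lower at 20 °C than at 30 °C, without overlap. The summed level of 8 brown adipocyte markers was 9476 to 11812 RPKM in wild-type iBAT and 51.1 to 218 RPKM in wild-type iWAT at 30 °C, higher in every iBAT library. The summed level of 7 skeletal muscle markers varied widely among the libraries of a group, for example 5.69 to 7676 RPKM in Ucp1-KO iBAT on high fat diet. In bulk tissue, fewer cells of a type and less RNA per cell cannot be told apart.

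At 30 °C on control diet, 8 of the 9 genes were higher in Ucp1-KO than in wild-type iBAT and none was lower (limma on log2(RPKM + 1), Benjamini-Hochberg adjusted p under 0.05 over all genes). The rises ran from 0.76 in Dusp1 to 1.55 in Junb on the log2 scale. Differences are given throughout on that scale with their SE, for 8 libraries a group. Of all 14807 genes tested in iBAT, 54.2% were called higher in this comparison, and the median difference was 0.27 over all genes and 1.03 over the 9. The wide shift changed with the scaling: 83.7% of all calls were rises in RPKM, 55.9% after median-ratio scaling and 42.0% after quantile normalization. The 8 calls passed under both of those scalings, with medians of 0.75 and 0.80 over the 9 genes. For 5 of the 9 genes every Ucp1-KO library lay above every wild-type library, beside 21.8% of all genes.

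Among the AP-1 genes, Junb ran from 23.8 to 49.9 RPKM (median 38.5) in Ucp1-KO iBAT, against 8.65 to 16.4 RPKM (median 11.5) in wild-type iBAT. All 8 Ucp1-KO libraries lay above the highest wild-type library (1.55 ± 0.17, adjusted p = 9.0e-11). Jun ran from 40.7 to 65.2 RPKM (median 54.0) in Ucp1-KO iBAT, against 21.6 to 37.5 RPKM (median 25.1) in wild-type iBAT, again without overlap (0.98 ± 0.14, adjusted p = 3.1e-08). Fos ran from 10.1 to 28.1 RPKM (median 18.5) in Ucp1-KO iBAT, against 1.10 to 26.1 RPKM (median 4.97) in wild-type iBAT. The wild-type libraries spread over a wide range that reached into that of Ucp1-KO iBAT, and the Fos difference passed (1.44 ± 0.39, adjusted p = 0.0012). Fosb, the least abundant of the 4, was the member that did not pass (0.17 ± 0.31, adjusted p = 0.63), with medians of 1.20 RPKM in Ucp1-KO and 0.738 RPKM in wild-type iBAT.

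Egr2 had the largest ratio of means in this comparison. Egr2 ran from 1.23 to 5.05 RPKM (median 3.23) in Ucp1-KO iBAT, against 0.123 to 0.881 RPKM (median 0.555) in wild-type iBAT, with no overlap and a 6.44-fold ratio of means (1.42 ± 0.19, adjusted p = 9.5e-09). These are low levels: Egr2 rested on 55.0 to 185 reads a library in Ucp1-KO iBAT and 5.01 to 31.0 reads in wild-type iBAT, and the added 1 RPKM shrinks the log2 difference of so low a gene. Egr1 ran from 24.6 to 40.4 RPKM (median 33.4) in Ucp1-KO iBAT, against 4.52 to 40.5 RPKM (median 12.5) in wild-type iBAT. Its ranges overlapped and the difference passed (1.12 ± 0.33, adjusted p = 0.0034). Ier2 ran from 20.8 to 33.9 RPKM (median 27.4) in Ucp1-KO iBAT, against 9.92 to 18.5 RPKM (median 12.5) in wild-type iBAT, without overlap (1.03 ± 0.12, adjusted p = 1.0e-09). Dusp1 ran from 66.8 to 97.99 RPKM (median 89.7) in Ucp1-KO iBAT, against 39.0 to 64.8 RPKM (median 50.0) in wild-type iBAT, also without overlap (0.76 ± 0.15, adjusted p = 2.3e-05). Nr4a1 had medians of 48.5 RPKM in Ucp1-KO and 27.3 RPKM in wild-type iBAT, with overlapping ranges (1.02 ± 0.27, adjusted p = 9.0e-04).

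Other early response genes moved the same way in that comparison, with 31 of 32 higher and 0 lower (median difference 0.98). This list and the others counted below were chosen with earlier results of these data known. Their counts are descriptions and no independent support. Fosl1, a further Fos family subunit of AP-1, differed by 3.13 ± 0.24, the stress factor Atf3 by 2.70 ± 0.26, and Ier5 by 1.92 ± 0.16. Trib1 (0.09 ± 0.12) was the gene of that list that did not pass and is named for that reason, after its values were seen. After median-ratio scaling 24 of these genes were called higher. Of 24 kinases and transcription factors upstream of early genes, 16 were called higher and 2 lower, a median of 0.33 beside 0.27 for all genes, and the split became 7 higher and 5 lower after median-ratio scaling. The heat shock genes gave 10 of 12 higher and 0 lower (median difference 0.84), Bag3 (a cochaperone) among them (1.07 ± 0.09). Macrophage markers rose in the same libraries, with 8 of 9 higher and 1 lower (median difference 2.17). Their summed level was 455 to 2516 RPKM in Ucp1-KO iBAT and 213 to 354 RPKM in wild-type iBAT, without overlap, and none of the 9 measured markers was at 0 throughout a group. Fibroblast and progenitor markers gave 7 of 7 higher and 0 lower (median difference 0.89). Other marker genes called higher and lower were 3 and 0 of 4 for neutrophils, 4 and 0 of 7 for lymphocytes, 5 and 0 of 8 for endothelial cells, 5 and 0 of 6 for smooth muscle and pericytes, 5 and 0 of 6 for adipocytes and 1 and 6 of 8 for brown adipocytes. The part of these cell types in the rise of the early genes was not tested. Values over 1.5 times apart, with the call kept, were found for Egr2 (2.45 with a pseudocount of 0.1 and 2.21 with transcript rows summed) and Dusp1 (0.46 after median-ratio scaling).

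With high fat diet at 30 °C, 5 of the 9 genes were higher in Ucp1-KO than in wild-type iBAT (Jun, Junb, Egr2, Ier2 and Nr4a1) and none was lower. The count was close to the share of all genes called higher, 52.8%, with a median difference of 0.25 over all genes. Of all calls 82.7% were rises in RPKM, 54.6% after median-ratio scaling and 41.1% after quantile normalization. Junb ran from 33.9 to 58.7 RPKM (median 45.9) in Ucp1-KO iBAT, against 9.96 to 31.7 RPKM (median 16.6) in wild-type iBAT (1.32 ± 0.17, adjusted p = 5.9e-09). Jun ran from 45.8 to 98.5 RPKM (median 68.1) in Ucp1-KO iBAT, against 23.9 to 40.3 RPKM (median 31.8) in wild-type iBAT (1.07 ± 0.14, adjusted p = 4.7e-09). The ranges of both genes were apart, as were those of 20.4% of all genes in the same direction. Nr4a1 showed its widest genotype difference here, 1.37 ± 0.27, with medians of 53.3 RPKM in Ucp1-KO and 25.7 RPKM in wild-type iBAT and 5 Ucp1-KO libraries above the highest wild-type library (adjusted p = 2.1e-05). Egr2 differed by 1.06 ± 0.19, adjusted p = 4.1e-06, and Ier2 by 0.77 ± 0.12, adjusted p = 7.4e-07. The differences of Fos (0.85 ± 0.39, adjusted p = 0.054), Fosb (-0.18 ± 0.31, adjusted p = 0.62), Egr1 (0.45 ± 0.33, adjusted p = 0.23) and Dusp1 (0.12 ± 0.15, adjusted p = 0.49) did not pass. Among the other early response genes, the count was 30 of 32 higher and 0 lower (median difference 0.72), and macrophage markers 8 of 9 higher and 1 lower (median difference 1.86). Of the other markers, those called higher and lower were 2 and 0 of 4 for neutrophils, 7 and 0 of 7 for lymphocytes, 0 and 3 of 8 for endothelial cells, 7 and 0 of 7 for fibroblasts and progenitors, 4 and 1 of 6 for smooth muscle and pericytes, 6 and 0 of 7 for skeletal muscle, 6 and 0 of 6 for adipocytes and 1 and 5 of 8 for brown adipocytes, and their part was not tested. Fos passed without library 36, 39, 41 or 42 (0.95 to 1.01, adjusted p = 0.025 to 0.037). Fos passed in a fit of only the groups compared (0.85). The size but not the call of Egr2 (1.68 with a pseudocount of 0.1 and 0.70 after quantile normalization) and Ier2 (0.50 after median-ratio scaling and 0.50 after quantile normalization) moved by over 1.5 times.

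At 20 °C 3 genes were higher in Ucp1-KO than in wild-type iBAT, Dusp1, Jun and Ier2, and none was lower. This was beside 24.7% of all genes called higher and a median difference of 0.06. The share of all genes called higher was thus also smaller than at 30 °C (54.2% on control and 52.8% on high fat diet). Dusp1 stood out by its size. Dusp1 ran from 57.8 to 95.9 RPKM (median 71.0) in Ucp1-KO iBAT, against 13.6 to 43.2 RPKM (median 20.7) in wild-type iBAT, with every Ucp1-KO library above every wild-type library, as for 9.08% of all genes (1.64 ± 0.15, adjusted p = 1.5e-12). Jun ran from 15.7 to 30.3 RPKM (median 24.3) in Ucp1-KO iBAT, against 10.3 to 19.2 RPKM (median 13.1) in wild-type iBAT (0.73 ± 0.14, adjusted p = 2.4e-05), with 6 Ucp1-KO libraries above the highest wild-type library. The Ier2 difference was 0.36 ± 0.12, adjusted p = 0.017. Fos, Fosb, Junb, Egr1, Egr2 and Nr4a1 did not pass, with differences from -0.56 ± 0.31 in Fosb to 0.36 ± 0.27 in Nr4a1. Of the other early response genes 14 of 32 were higher and 4 lower, led by Atf3 (2.76 ± 0.26) and Dusp6 (1.18 ± 0.12), a MAP kinase phosphatase. Macrophage markers gave 7 of 9 higher and 1 lower (median difference 0.98). Marker genes of further cell types called higher and lower were 1 and 0 of 7 for lymphocytes, 2 and 1 of 8 for endothelial cells, 0 and 2 of 6 for smooth muscle and pericytes, 0 and 2 of 6 for adipocytes and 2 and 1 of 8 for brown adipocytes, and their part was not tested. Of all calls 65.4% were rises in RPKM, 51.3% after median-ratio scaling and 45.2% after quantile normalization. Ier2 lost its call after quantile normalization (0.26). Fosb passed with a pseudocount of 0.1 (-1.32).

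**Figure D1:**
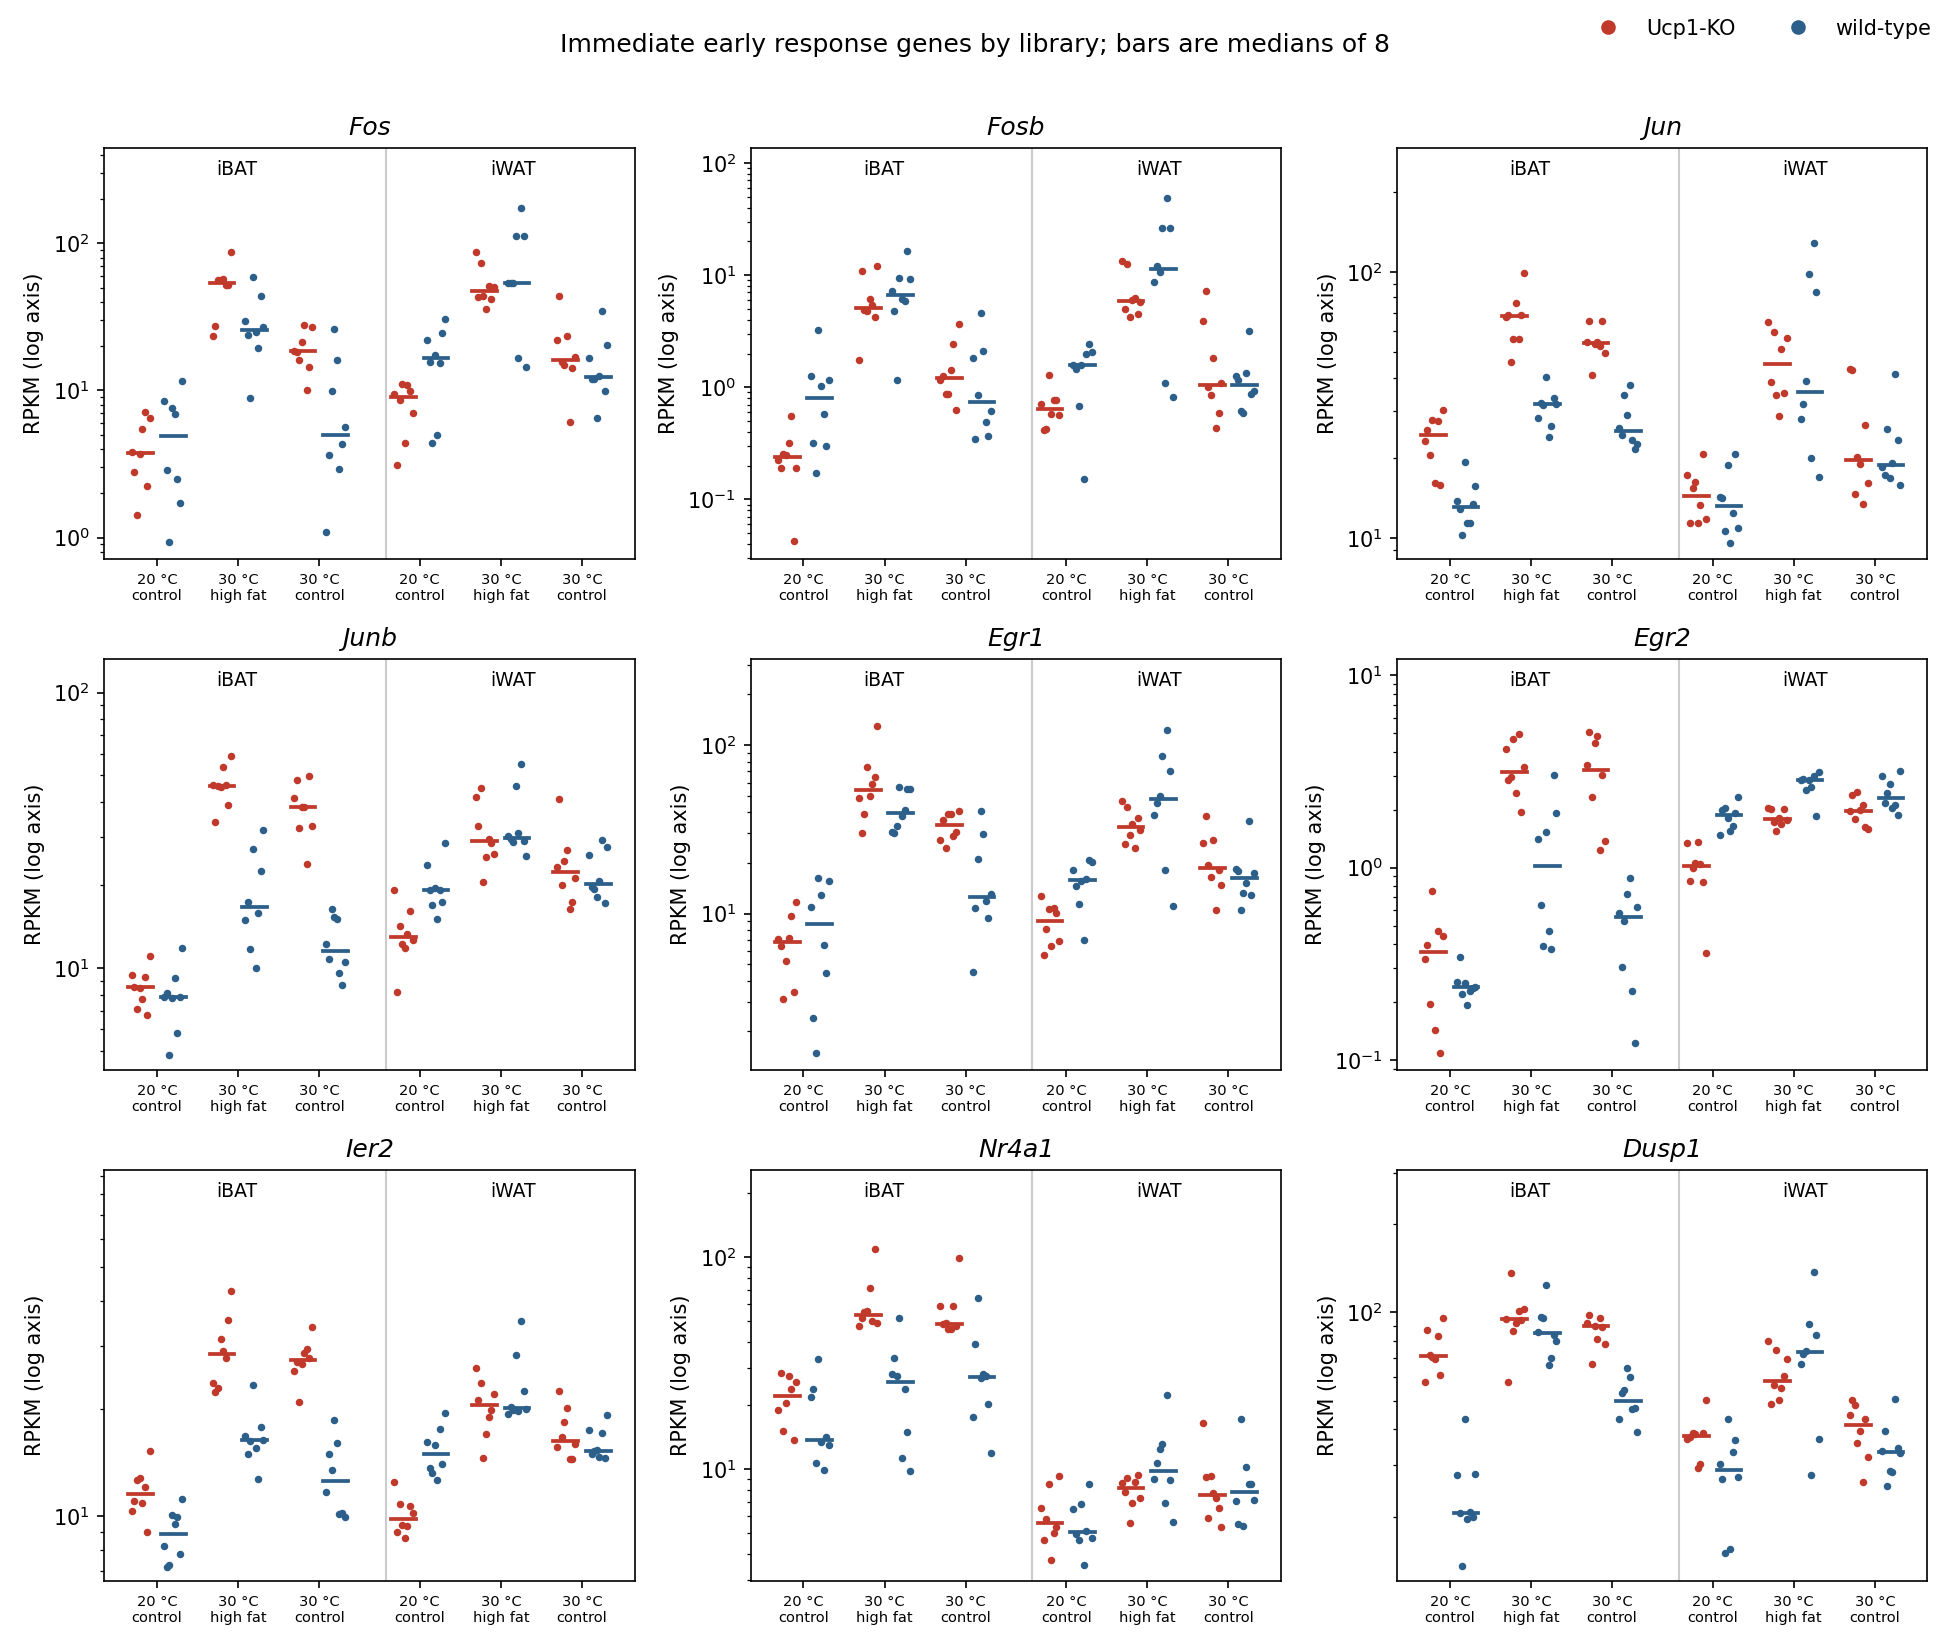
RPKM of each of the 9 genes (log axis) in every library, by depot, condition and genotype, with Ucp1-KO in red left of wild-type in blue and a bar at the median of 8 libraries. In iBAT at 30 °C on control diet the Ucp1-KO libraries of Junb sit between 23.8 and 49.9 RPKM, above all wild-type libraries of that condition, while at 20 °C the genotypes overlap.

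Further groups of genes around these pathways were counted beside the members in the 30 °C comparison of genotypes in iBAT, where 54.2% of all genes were called higher and 10.5% lower. Of the partners and corepressors of AP-1 and EGR proteins, 6 of 8 were higher and 1 lower. Nab2, a corepressor of EGR proteins, was higher by 1.00 ± 0.14. Of 10 genes that glucocorticoids induce, 8 were higher, among them the metallothionein gene Mt2 (1.76 ± 0.27) and the cochaperone gene Fkbp5 (1.06 ± 0.20), and 1, the kinase gene Pdk4, was lower (-0.65 ± 0.11). Of 10 cAMP-responsive genes of fat cells, 3 were higher, including the phosphodiesterase gene Pde4b (1.06 ± 0.14) and Fgf21 (1.47 ± 0.22), and 3 lower, including Ucp1 itself and Ppargc1a (-0.92 ± 0.24), a coactivator of mitochondrial genes. At 20 °C against 30 °C in Ucp1-KO iBAT, where 13.9% of all genes were called higher and 59.5% lower, these lists gave 0 higher and 8 lower for the partners, 1 higher and 8 lower for the glucocorticoid-induced genes, and 4 higher and 3 lower for the cAMP-responsive genes, where Fgf21 rose (2.63 ± 0.22) and Pde4b fell (-1.31 ± 0.14).

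In Ucp1-KO iBAT on control diet, 8 of the 9 genes were lower at 20 °C than at 30 °C, beside 59.5% of all genes called lower and a median difference of -0.34. The differences ran from -2.23 in Egr1 to -0.94 in Fosb on the log2 scale, and for all 8 every library at 20 °C lay below every library at 30 °C, which held for 27.9% of all genes. Of all calls 18.9% were rises in RPKM, 43.3% after median-ratio scaling and 53.2% after quantile normalization, and 8 and 7 of the 9 genes were called lower under those scalings.

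Fos ran from 1.42 to 7.09 RPKM (median 3.76) at 20 °C, against 10.1 to 28.1 RPKM (median 18.5) at 30 °C (-2.03 ± 0.39, adjusted p = 1.0e-05). Egr1 ran from 3.10 to 11.7 RPKM (median 6.75) at 20 °C, against 24.6 to 40.4 RPKM (median 33.4) at 30 °C (-2.23 ± 0.33, adjusted p = 1.0e-07). Junb ran from 6.76 to 11.1 RPKM (median 8.51) at 20 °C, against 23.8 to 49.9 RPKM (median 38.5) at 30 °C (-2.02 ± 0.17, adjusted p = 3.0e-14). Each of these 3 fell by more than 2 on the log2(RPKM + 1) scale, while Egr2 (-1.56 ± 0.19, adjusted p = 5.3e-10), Nr4a1 (-1.33 ± 0.27, adjusted p = 2.2e-05), Jun (-1.21 ± 0.14, adjusted p = 1.0e-10), Ier2 (-1.16 ± 0.12, adjusted p = 2.5e-11) and Fosb (-0.94 ± 0.31, adjusted p = 0.0055) fell by less on that scale. The added 1 RPKM shrinks the differences of low genes. By the ratio of means, 20 °C over 30 °C, Egr2 (0.110) and Fosb (0.165) fell most, beside Egr1 (0.202), Fos (0.215) and Junb (0.224). Dusp1 was the exception, at 57.8 to 95.9 RPKM (median 71.0) at 20 °C, against 66.8 to 97.99 RPKM (median 89.7) at 30 °C (-0.22 ± 0.15, adjusted p = 0.18). All 32 other early response genes measured were called lower at 20 °C, with a median difference of -1.23, and 30 of them were after median-ratio scaling. Fosl1 fell to 0.978 RPKM on average at 20 °C, against 20.1 RPKM at 30 °C, and Arc, an early gene best known from neurons, to 0.835 RPKM, against 10.9 RPKM. Macrophage markers gave 0 of 9 higher and 9 lower (median difference -2.23), with summed levels of 129.7 to 406 RPKM at 20 °C and 455 to 2516 RPKM at 30 °C. Fibroblast and progenitor markers summed to 175 to 335 RPKM at 20 °C and 467 to 1080.4 RPKM at 30 °C, endothelial markers to 213 to 325 RPKM at 20 °C and 336 to 549 RPKM at 30 °C, and brown adipocyte markers to 4229.6 to 5096 RPKM at 20 °C and 2101 to 4105 RPKM at 30 °C. These 4 sums did not overlap between temperatures. By gene, markers called higher and lower were 0 and 2 of 4 for neutrophils, 0 and 5 of 7 for lymphocytes, 0 and 8 of 8 for endothelial cells, 0 and 7 of 7 for fibroblasts and progenitors, 0 and 5 of 6 for smooth muscle and pericytes, 0 and 5 of 6 for adipocytes and 7 and 1 of 8 for brown adipocytes. The part of these cell types in the fall of the early genes was not tested. Fosb lost its call after quantile normalization (-0.65). A move of over 1.5 times with the call kept was seen for Fosb (-2.12 with a pseudocount of 0.1) and Egr2 (-2.85 with a pseudocount of 0.1 and -2.47 with transcript rows summed).

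In wild-type iBAT 6 of the 9 genes were lower at 20 °C than at 30 °C, and the other 3 (Fos, Fosb and Egr2) did not pass, beside 33% of all genes called lower and a median difference of -0.12. Dusp1 ran from 13.6 to 43.2 RPKM (median 20.7) at 20 °C, against 39.0 to 64.8 RPKM (median 50.0) at 30 °C (-1.10 ± 0.15, adjusted p = 6.3e-08), with 7 libraries at 20 °C below the lowest at 30 °C. Jun ran from 10.3 to 19.2 RPKM (median 13.1) at 20 °C, against 21.6 to 37.5 RPKM (median 25.1) at 30 °C (-0.97 ± 0.14, adjusted p = 1.4e-07), with no overlap, as for 13.1% of all genes in that direction. Junb differed by -0.59 ± 0.17, adjusted p = 0.0039 and Ier2 by -0.49 ± 0.12, adjusted p = 0.0010, each with 6 libraries at 20 °C below the lowest at 30 °C. The differences of Egr1 (-0.97 ± 0.33, adjusted p = 0.016) and Nr4a1 (-0.67 ± 0.27, adjusted p = 0.037) passed with larger adjusted p-values. Of the other early response genes 22 of 32 were lower and 1, Rhob, named after its value was seen, was higher, with Klf4 (-1.30 ± 0.12) and Dusp6 (-1.31 ± 0.12) of the smallest p. Macrophage markers gave 0 of 9 higher and 9 lower (median difference -1.06), and markers of other cells called higher and lower were 0 and 1 of 7 for lymphocytes, 0 and 8 of 8 for endothelial cells, 0 and 6 of 7 for fibroblasts and progenitors, 0 and 4 of 6 for smooth muscle and pericytes and 4 and 4 of 8 for brown adipocytes. Their part was not tested. Of all calls 26.1% were rises in RPKM, 49.4% after median-ratio scaling and 49.7% after quantile normalization. Egr1 lost its call without library 2, 3 or 20 (-0.79 to -0.73, adjusted p = 0.051 to 0.064). Nr4a1 lost its call without library 3, 5, 6, 7, 8, 18, 19, 20, 21 or 22 (-0.67 to -0.49, adjusted p = 0.050 to 0.13). The call of Nr4a1 was lost without the filter on low values, with array weights, in a fit of only the groups compared and after either scaling (-0.67 to -0.51). The call of Egr1 was lost in a fit of only the groups compared (-0.97). Ier2 (-0.32 after quantile normalization) moved by over 1.5 times and kept its call.

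The temperature difference itself was compared between genotypes with an interaction contrast, the 20 °C minus 30 °C difference of Ucp1-KO minus that of wild-type iBAT. It passed for 5 genes in the negative direction, Fos, Junb, Egr1, Egr2 and Ier2, beside 40.5% of all genes, and for Dusp1 in the positive direction, beside 11.9% of all genes. The median over all genes was -0.24. Junb gave the smallest p among the 5 (-1.43 ± 0.24, adjusted p = 3.8e-06), beside differences of -2.02 in Ucp1-KO and -0.59 in wild-type iBAT. Egr2 gave -1.31 ± 0.26, adjusted p = 6.6e-05, Fos -1.59 ± 0.55, adjusted p = 0.014, Egr1 -1.26 ± 0.47, adjusted p = 0.023 and Ier2 -0.67 ± 0.17, adjusted p = 0.0014. Dusp1 gave 0.88 ± 0.21, adjusted p = 5.8e-04. The level of Dusp1 at 20 °C was 74.6 ± 13.1 RPKM in Ucp1-KO and 24.2 ± 8.99 RPKM in wild-type iBAT (mean ± SD, n = 8 each), while at 30 °C it was 86.5 ± 10.4 RPKM in Ucp1-KO and 51.0 ± 8.70 RPKM in wild-type iBAT. Fosb (-0.74 ± 0.43, adjusted p = 0.15), Nr4a1 (-0.66 ± 0.38, adjusted p = 0.14) and Jun (-0.25 ± 0.19, adjusted p = 0.28) did not pass. Other early response genes gave 1 of 32 higher and 20 lower (median difference -0.72), and brown adipocyte markers, Ucp1 among them, 6 of 8 higher and 0 lower (median difference 1.04). Markers of other cells with positive and negative calls were 0 and 8 of 9 for macrophages, 0 and 2 of 4 for neutrophils, 0 and 3 of 7 for lymphocytes, 0 and 2 of 8 for endothelial cells, 0 and 7 of 7 for fibroblasts and progenitors, 0 and 5 of 6 for smooth muscle and pericytes and 0 and 3 of 6 for adipocytes. Of all calls 22.7% were positive in RPKM, 43.2% after median-ratio scaling and 52.6% after quantile normalization. Egr1 lost its call without library 17 (-1.05, adjusted p = 0.051). Nr4a1 passed without library 19 (-0.84, adjusted p = 0.048). The call of Egr1 was lost after either scaling (-1.06 to -1.04). Fosb passed with a pseudocount of 0.1 (-1.73). Values over 1.5 times apart, with the call kept, were found for Egr2 (-2.19 with a pseudocount of 0.1). The 2 groups at 30 °C on control diet serve in the genotype, temperature and diet comparisons alike, so those comparisons are not independent of each other.

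High fat diet at 30 °C went with higher Fos and Fosb in iBAT of both genotypes. In wild-type iBAT 7 of the 9 genes were higher on high fat than on control diet and none was lower, beside 18.5% of all genes called higher and a median difference of 0.02. Fos ran from 8.83 to 59.5 RPKM (median 25.9) on high fat diet, against 1.10 to 26.1 RPKM (median 4.97) on control diet (1.93 ± 0.39, adjusted p = 1.2e-04). Fosb ran from 1.17 to 16.5 RPKM (median 6.68) on high fat diet, against 0.344 to 4.64 RPKM (median 0.738) on control diet (1.81 ± 0.31, adjusted p = 9.2e-06), with 7 of 8 libraries on high fat diet above the highest on control diet. Dusp1 ran from 66.1 to 124 RPKM (median 84.9) on high fat diet, against 39.0 to 64.8 RPKM (median 50.0) on control diet (0.76 ± 0.15, adjusted p = 8.8e-05), without overlap, as for 3.59% of all genes in that direction. Egr1 differed by 1.43 ± 0.33, adjusted p = 7.7e-04, with medians of 39.5 RPKM on high fat and 12.5 RPKM on control diet. Junb (0.52 ± 0.17, adjusted p = 0.015), Egr2 (0.48 ± 0.19, adjusted p = 0.042) and Ier2 (0.34 ± 0.12, adjusted p = 0.030) passed with smaller differences on this scale, and Jun (0.18 ± 0.14, adjusted p = 0.31) and Nr4a1 (-0.25 ± 0.27, adjusted p = 0.51) did not pass. The added 1 RPKM shrinks the log2 difference of a gene as low as Egr2. Its ratio of means was 2.44, beside 2.40 for Egr1 and 1.72 for Dusp1. Other early response genes gave 17 of 32 higher and 2 lower (median difference 0.45), among them Cyr61 (0.86 ± 0.16), a matrix-associated growth regulator, and in the other direction Gadd45g (-0.77 ± 0.15). Heat shock genes gave 7 of 12 higher and 0 lower (median difference 0.34), endothelial markers 8 of 8 higher and 0 lower (median difference 0.57) and macrophage markers 0 of 9 higher and 0 lower (median difference -0.04). Further markers called higher and lower were 2 and 0 of 7 for fibroblasts and progenitors, 4 and 0 of 6 for smooth muscle and pericytes, 1 and 0 of 6 for adipocytes and 1 and 5 of 8 for brown adipocytes. The part of these cells in the rises was not tested. The call of Ier2 was lost without library 17, 22, 23, 24, 36 or 39 (0.27 to 0.33, adjusted p = 0.051 to 0.088). Egr2 lost its call without library 18, 22, 23, 33, 36, 39 or 40 (0.34 to 0.46, adjusted p = 0.070 to 0.15). Junb lost its call without library 40 (0.40, adjusted p = 0.057). The call of Egr2 was lost without the filter on low values and in a fit of only the groups compared (0.48). The size but not the call of Egr2 (0.96 with a pseudocount of 0.1 and 0.78 with transcript rows summed) moved by over 1.5 times.

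In Ucp1-KO iBAT 2 of the 9 genes were higher on high fat than on control diet, beside 8.35% of all genes, with a median difference of -0.01. Fosb ran from 1.77 to 12.0 RPKM (median 5.13) on high fat diet, against 0.622 to 3.67 RPKM (median 1.20) on control diet (1.45 ± 0.31, adjusted p = 6.1e-04). Fos ran from 23.4 to 87.7 RPKM (median 54.0) on high fat diet, against 10.1 to 28.1 RPKM (median 18.5) on control diet (1.34 ± 0.39, adjusted p = 0.013). In both genes most libraries on high fat diet, 7 for Fosb and 6 for Fos, lay above all libraries on control diet. The other 7 genes differed by 0.08 (Ier2) to 0.77 (Egr1) and did not pass. The other early response genes counted 6 of 32 higher and 1 lower (median difference 0.12). Marker genes called higher and lower were 0 and 1 of 9 for macrophages, 0 and 1 of 4 for neutrophils, 1 and 0 of 8 for endothelial cells, 1 and 1 of 7 for fibroblasts and progenitors, 3 and 0 of 6 for smooth muscle and pericytes, 1 and 0 of 6 for adipocytes and 1 and 4 of 8 for brown adipocytes, and their part was not tested. Egr1 passed in a fit of only the groups compared (0.77). No member passed the test of whether the diet difference itself differed between genotypes, beside 6.55% of all genes called in either direction. Dusp1 was the 1 member with an unadjusted p under 0.05 there (-0.64 ± 0.21, adjusted p = 0.057), its diet difference being 0.12 in Ucp1-KO and 0.76 in wild-type iBAT. Dusp1 passed without library 20, 27, 37, 38 or 43 (-0.71 to -0.68, adjusted p = 0.027 to 0.046). Dusp1 passed after quantile normalization, with array weights and in a fit of only the groups compared (-0.81 to -0.64). Egr2 passed with array weights (-0.66).

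**Figure D2:**
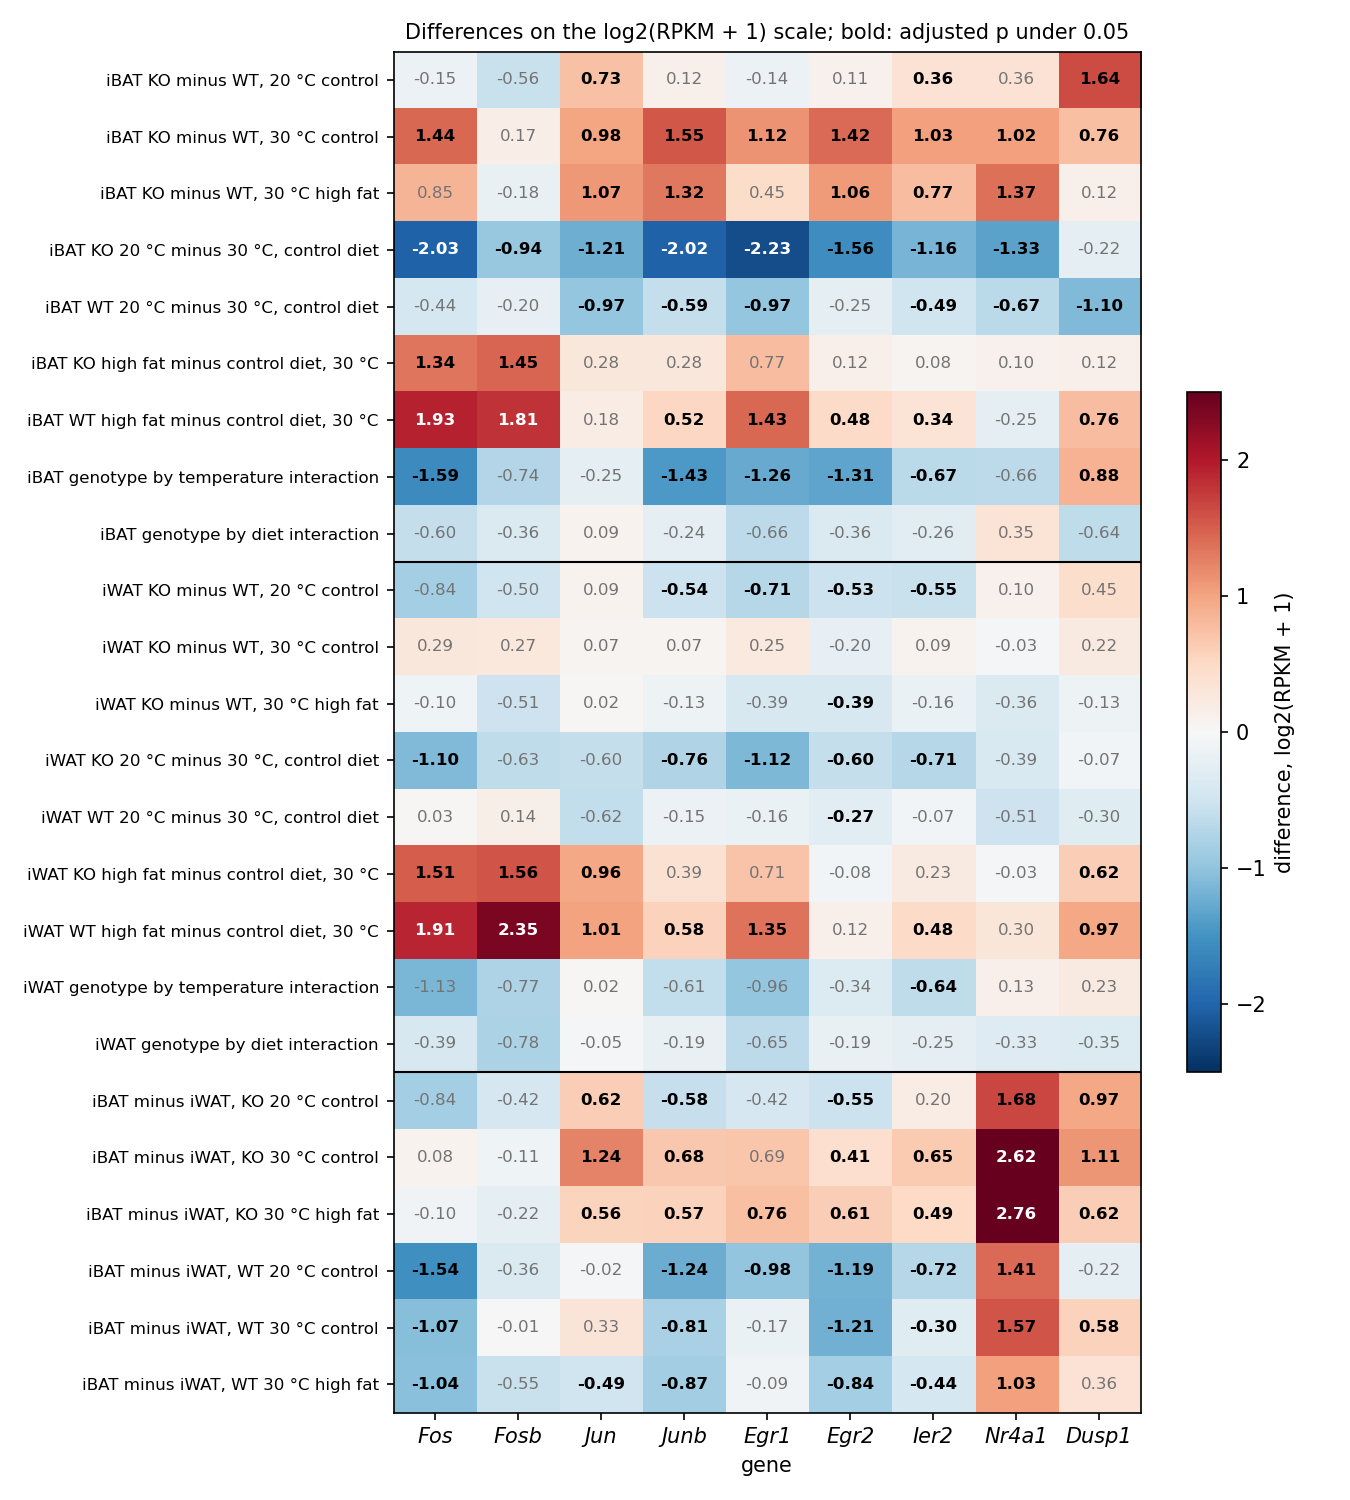
Differences on the log2(RPKM + 1) scale for the 9 genes (columns) in the 24 comparisons (rows; iBAT, iWAT and iBAT minus iWAT from top to bottom), red for higher and blue for lower in the group named first, bold where the adjusted p was under 0.05. The row of Ucp1-KO iBAT at 20 °C minus 30 °C is blue and bold for all but Dusp1, and both depots have red cells for Fos and Fosb on high fat diet.

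In wild-type iWAT 7 of the 9 genes were higher on high fat than on control diet at 30 °C, beside 9.69% of all 15897 genes tested and a median difference of -0.00280. Fosb ran from 0.819 to 48.2 RPKM (median 11.4) on high fat diet, against 0.596 to 3.18 RPKM (median 1.05) on control diet (2.35 ± 0.42, adjusted p = 1.1e-04). Fos ran from 14.4 to 173 RPKM (median 54.0) on high fat diet, against 6.54 to 34.8 RPKM (median 12.3) on control diet (1.91 ± 0.39, adjusted p = 6.0e-04). For both, 6 of the 8 libraries on high fat diet lay above the highest on control diet and the other 2, libraries 85 and 88, lay within the range of control diet. Egr1 ran from 11.0 to 123 RPKM (median 47.7) on high fat diet, against 10.5 to 35.5 RPKM (median 16.3) on control diet (1.35 ± 0.30, adjusted p = 0.0012). Jun ran from 16.9 to 129 RPKM (median 35.3) on high fat diet, against 15.8 to 41.1 RPKM (median 18.8) on control diet (1.01 ± 0.29, adjusted p = 0.014). Dusp1 differed by 0.97 ± 0.21, adjusted p = 9.2e-04, Junb by 0.58 ± 0.17, adjusted p = 0.013 and Ier2 by 0.48 ± 0.11, adjusted p = 0.0018. Ier2 was the one whose ranges were apart, beside 1.79% of all genes, although its difference was the smallest of the 7. Egr2 (0.12 ± 0.09, adjusted p = 0.46) and Nr4a1 (0.30 ± 0.20, adjusted p = 0.40) did not pass. The list of other early response genes gave 16 of 33 higher and 1 lower (median difference 0.30), with Cyr61 at 1.75 ± 0.32. Macrophage markers gave 0 of 9 higher and 0 lower (median difference -0.04) and skeletal muscle markers 0 of 7 higher and 5 lower (median difference -3.64). Markers of other cells called higher and lower were 1 and 0 of 8 for endothelial cells, 1 and 0 of 7 for fibroblasts and progenitors, 2 and 0 of 6 for smooth muscle and pericytes, 1 and 1 of 6 for adipocytes and 0 and 3 of 8 for brown adipocytes, and their part was not tested. Of all calls 71.6% were rises in RPKM, 58.5% after median-ratio scaling and 62.8% after quantile normalization. Jun lost its call without library 86 (0.79, adjusted p = 0.055). The call of Jun was lost in a fit of only the groups compared (1.01). Nr4a1 passed with array weights (0.52).

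The 8 libraries of wild-type iWAT on high fat diet varied widely for these genes. Fos was 173 RPKM in library 86, 112 RPKM in library 84 and 111 RPKM in library 87, and 16.6 RPKM in library 85 and 14.4 RPKM in library 88. Jun followed the same order at the ends, with 129 RPKM in library 86 and 16.9 RPKM in library 88. Egr2 did not: it was 3.01 RPKM in library 86 and 3.16 RPKM in library 88. Expressed as the mean deviation of the 9 genes from their group mean, in units of each gene's SD within groups, library 86 stood at 2.37, library 85 at -1.67 and library 88 at -1.81, the widest 3 deviations of the 48 iWAT libraries.

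**Figure D3:**
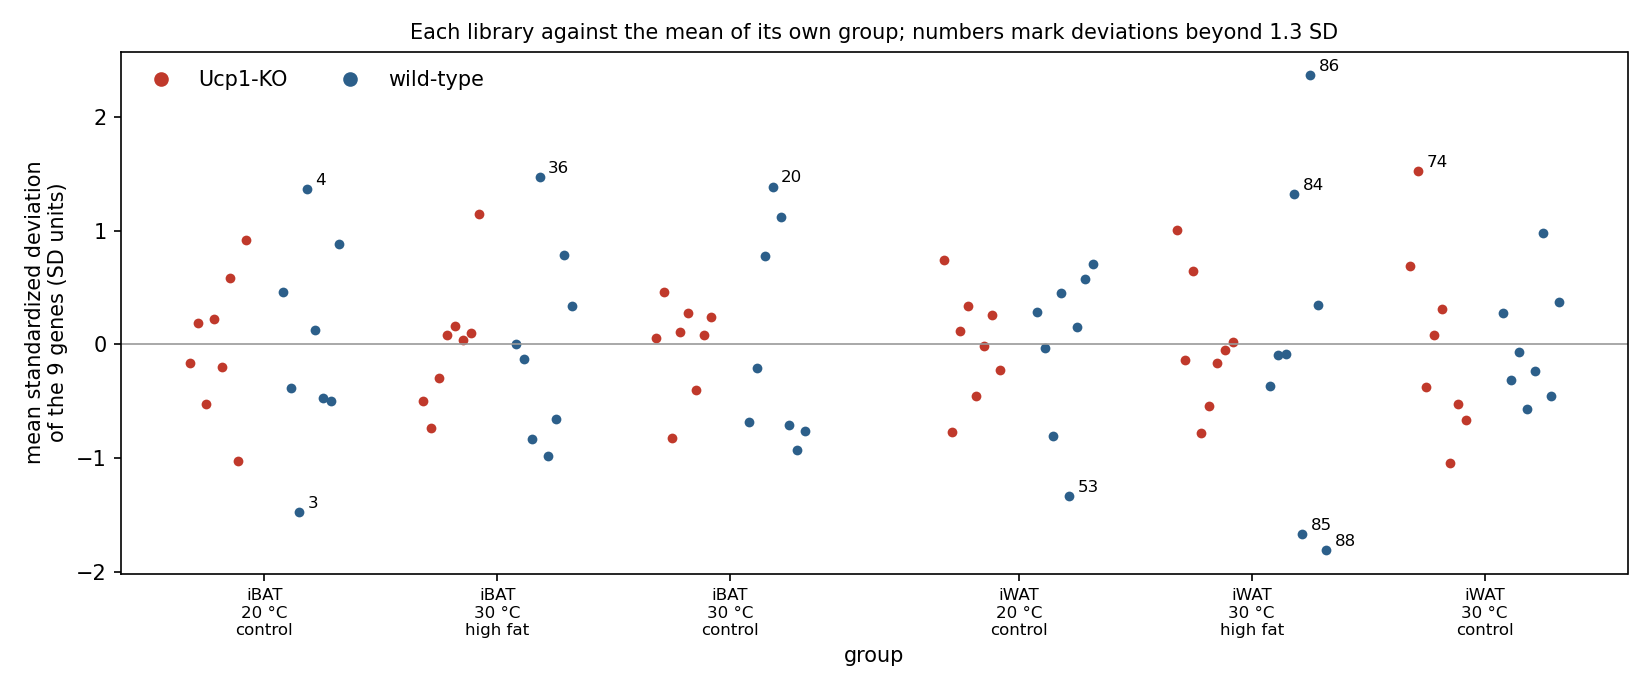
Mean deviation of the 9 genes from their own group's mean in each library, in units of the within-group SD of each gene, by depot and condition with Ucp1-KO in red left of wild-type in blue. Wild-type iWAT on high fat diet holds both the highest library (2.37, library 86) and the lowest (-1.81, library 88).

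In Ucp1-KO iWAT 4 of the 9 genes were higher on high fat than on control diet, beside 16.1% of all genes called higher and a median difference of 0.09. Fos ran from 35.8 to 87.8 RPKM (median 47.1) on high fat diet, against 6.14 to 43.6 RPKM (median 16.2) on control diet (1.51 ± 0.39, adjusted p = 0.0035). Fosb ran from 4.23 to 13.5 RPKM (median 5.85) on high fat diet, against 0.437 to 7.16 RPKM (median 1.05) on control diet (1.56 ± 0.42, adjusted p = 0.0049). The ranges of both overlapped, with 5 libraries on high fat diet above the highest on control diet for Fos and 2 for Fosb. Jun (0.96 ± 0.29, adjusted p = 0.012) and Dusp1 (0.62 ± 0.21, adjusted p = 0.024) passed too, while Junb (0.39 ± 0.17, adjusted p = 0.082), Egr1 (0.71 ± 0.30, adjusted p = 0.076), Ier2 (0.23 ± 0.11, adjusted p = 0.12), Egr2 (-0.08 ± 0.09, adjusted p = 0.56) and Nr4a1 (-0.03 ± 0.20, adjusted p = 0.93) did not. The list of other early response genes gave 10 of 33 higher and 2 lower (median difference 0.21), led by Jund (0.55 ± 0.09), a Jun family subunit of AP-1, and Klf6 (0.70 ± 0.13). Brown adipocyte markers gave 0 of 8 higher and 8 lower (median difference -2.28). Markers of other cells called higher and lower were 3 and 0 of 9 for macrophages, 1 and 0 of 8 for endothelial cells, 2 and 0 of 7 for fibroblasts and progenitors, 1 and 0 of 6 for smooth muscle and pericytes, 0 and 5 of 7 for skeletal muscle and 1 and 1 of 6 for adipocytes, and the part of these cells was not tested. Of all calls 65.9% were rises in RPKM, 44.4% after median-ratio scaling and 44.2% after quantile normalization. Junb passed without library 74 or 92 (0.46 to 0.50, adjusted p = 0.018 to 0.037). Egr1 passed without library 74 (0.83, adjusted p = 0.038). Dusp1 lost its call without library 78 or 89 (0.54 to 0.57, adjusted p = 0.052 to 0.061). Ier2 passed without library 92 (0.29, adjusted p = 0.042). The call of Dusp1 was lost after either scaling (0.54 to 0.59). Junb passed with array weights (0.46). Egr1 passed with array weights and in a fit of only the groups compared (0.69 to 0.71). Ier2 passed with array weights (0.28). With array weights 7 members were called higher. The diet difference passed the test of a difference between genotypes for no member, beside 1.33% of all genes called in either direction; no member had an unadjusted p under 0.05, and with array weights 1 member passed, Egr1 (-0.98).

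In Ucp1-KO iWAT 5 of the 9 genes were lower at 20 °C than at 30 °C on control diet, Fos, Junb, Egr1, Egr2 and Ier2, beside 51.4% of all genes called lower and a median difference of -0.25. Ier2 ran from 8.67 to 12.5 RPKM (median 9.79) at 20 °C, against 14.4 to 22.4 RPKM (median 16.3) at 30 °C (-0.71 ± 0.11, adjusted p = 6.3e-07). Egr2 ran from 0.360 to 1.36 RPKM (median 1.02) at 20 °C, against 1.59 to 2.47 RPKM (median 1.98) at 30 °C (-0.60 ± 0.09, adjusted p = 3.6e-07). Neither gene's ranges overlapped, which held in that direction for 9.69% of all genes. Junb differed by -0.76 ± 0.17, adjusted p = 1.6e-04, Egr1 by -1.12 ± 0.30, adjusted p = 0.0014 and Fos by -1.10 ± 0.39, adjusted p = 0.015, all with overlapping ranges. Other early response genes gave 2 of 33 higher and 20 lower (median difference -0.44), and 11 of them were lower and 4 higher after median-ratio scaling. Brown adipocyte markers gave 8 of 8 higher and 0 lower (median difference 2.13), with summed levels of 1208 to 3109 RPKM at 20 °C and 248 to 445 RPKM at 30 °C, and macrophage markers gave 0 of 9 higher and 8 lower (median difference -0.64). Markers of other cells called higher and lower were 0 and 3 of 8 for lymphocytes, 0 and 7 of 8 for endothelial cells, 0 and 7 of 7 for fibroblasts and progenitors, 0 and 5 of 6 for smooth muscle and pericytes, 0 and 1 of 7 for skeletal muscle and 0 and 4 of 6 for adipocytes. The part of these cells was not tested. Of all calls 14.9% were rises in RPKM, 57.9% after median-ratio scaling and 53.6% after quantile normalization. Jun passed without library 75 or 78 (-0.70 to -0.68, adjusted p = 0.042 to 0.048). Fos lost its call after either scaling (-0.82 to -0.81). Nr4a1 passed with array weights (-0.42). Jun passed in a fit of only the groups compared (-0.60). A move of over 1.5 times with the call kept was seen for Egr2 (-1.01 with a pseudocount of 0.1, -0.39 after quantile normalization and -0.94 with transcript rows summed), Junb (-0.45 after median-ratio scaling and -0.50 after quantile normalization) and Ier2 (-0.41 after median-ratio scaling and -0.44 after quantile normalization).

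In wild-type iWAT Egr2 alone was lower at 20 °C, beside 12.4% of all genes called lower and a median difference of -0.10. Egr2 ran from 1.48 to 2.34 RPKM (median 1.87) at 20 °C, against 1.88 to 3.17 RPKM (median 2.31) at 30 °C (-0.27 ± 0.09, adjusted p = 0.029), and 4 libraries at 20 °C lay below the lowest at 30 °C. Fos had medians of 16.5 RPKM at 20 °C and 12.3 RPKM at 30 °C (0.03 ± 0.39, adjusted p = 0.96). The other differences lay between -0.62 ± 0.29 (Jun) and 0.14 ± 0.42 (Fosb). The other early response genes counted 0 of 33 higher and 4 lower (median difference -0.21). Marker genes called higher and lower were 0 and 2 of 8 for endothelial cells, 0 and 2 of 7 for fibroblasts and progenitors, 0 and 2 of 6 for smooth muscle and pericytes and 7 and 0 of 8 for brown adipocytes, and their part was not tested. Of all calls 37.0% were rises in RPKM, 66.6% after median-ratio scaling and 64.7% after quantile normalization. Egr2 lost its call without library 49, 53, 54, 65, 68 or 72 (-0.25 to -0.23, adjusted p = 0.053 to 0.070). Nr4a1 passed without library 55, 66 or 68 (-0.59, adjusted p = 0.045 to 0.047). The call of Egr2 was lost with a pseudocount of 0.1 and after either scaling (-0.38 to -0.15). Nr4a1 passed with array weights (-0.51). Jun passed in a fit of only the groups compared (-0.62). Between genotypes, the temperature difference passed for Ier2 alone (-0.64 ± 0.15, adjusted p = 0.0057), in the negative direction, beside 11.1% of all genes in that direction and a median of -0.16. Positive values made up 16.2% of all interaction calls in RPKM, 82.1% after median-ratio scaling and 72.5% after quantile normalization. Junb passed without library 57 or 79 (-0.68 to -0.66, adjusted p = 0.038 to 0.045). Egr2 passed without library 57, 61, 65, 72 or 79 (-0.38 to -0.36, adjusted p = 0.036 to 0.047). In the interaction, Ier2 lost its call after either scaling (-0.44 to -0.42). Egr2 passed with a pseudocount of 0.1 and with array weights (-0.63 to -0.32). Junb passed with array weights (-0.60). Egr1 passed in a fit of only the groups compared (-0.96).

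Between genotypes at 20 °C, 4 of the 9 genes were lower in Ucp1-KO than in wild-type iWAT, beside 55% of all genes called lower and a median difference of -0.27. Egr2 ran from 0.360 to 1.36 RPKM (median 1.02) in Ucp1-KO iWAT, against 1.48 to 2.34 RPKM (median 1.87) in wild-type iWAT (-0.53 ± 0.09, adjusted p = 2.8e-06). Ier2 ran from 8.67 to 12.5 RPKM (median 9.79) in Ucp1-KO iWAT, against 12.6 to 19.5 RPKM (median 14.9) in wild-type iWAT (-0.55 ± 0.11, adjusted p = 3.4e-05). All 8 Ucp1-KO libraries of both genes were below every wild-type library, which held for 14.7% of all genes. Junb (-0.54 ± 0.17, adjusted p = 0.0044) and Egr1 (-0.71 ± 0.30, adjusted p = 0.034) were lower with overlapping ranges, and Fos (-0.84 ± 0.39, adjusted p = 0.056) and Dusp1 (0.45 ± 0.21, adjusted p = 0.056) did not pass. Other early response genes gave 6 of 33 higher and 18 lower (median difference -0.32), with Btg2 (-0.79 ± 0.10) and Klf2 (-0.84 ± 0.11) lower and Gadd45g (1.41 ± 0.18) higher. After median-ratio scaling 7 of them were higher and 11 lower. Brown adipocyte markers gave 8 of 8 higher and 0 lower (median difference 1.99), macrophage markers 0 of 9 higher and 9 lower (median difference -0.84) and lymphocyte markers 0 of 8 higher and 8 lower (median difference -1.34), whose summed level was 65.4 to 229 RPKM in Ucp1-KO iWAT, against 231 to 428 RPKM in wild-type iWAT. Further markers called higher and lower were 0 and 6 of 8 for endothelial cells, 0 and 7 of 7 for fibroblasts and progenitors, 0 and 3 of 6 for smooth muscle and pericytes, 0 and 3 of 4 for epithelium and 0 and 4 of 6 for adipocytes. The part of these cells was not tested. Of all calls 15.2% were rises in RPKM, 49.8% after median-ratio scaling and 50.8% after quantile normalization. Egr1 lost its call without library 49, 55, 56, 58, 61 or 64 (-0.67 to -0.64, adjusted p = 0.056 to 0.069). Fos passed without library 51, 53, 60 or 62 (-1.06 to -0.91, adjusted p = 0.018 to 0.049). Dusp1 passed without library 52, 54, 55, 61 or 62 (0.49 to 0.54, adjusted p = 0.023 to 0.046). The call of Egr1 was lost without the filter on low values, with array weights and after either scaling (-0.71 to -0.40). The call of Junb was lost after either scaling (-0.27 to -0.22). Ier2 lost its call after median-ratio scaling (-0.24). Dusp1 passed with array weights, in a fit of only the groups compared and after either scaling (0.45 to 0.78). Fos passed in a fit of only the groups compared (-0.84). Fosb passed in a fit of only the groups compared (-0.50). Egr2 (-0.91 with a pseudocount of 0.1 and -0.27 after quantile normalization) and Ier2 (-0.26 after quantile normalization) moved by over 1.5 times and kept their calls.

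At 30 °C on control diet no member passed between genotypes in iWAT, beside 23.8% of all genes called in either direction and a median difference of -0.12. Their differences lay between -0.20 ± 0.09 (Egr2) and 0.29 ± 0.39 (Fos), and 1 member, Egr2, had an unadjusted p under 0.05. On the same diet in iBAT the differences were 1.42 for Egr2 and 1.44 for Fos; the difference between the depots in this genotype effect was not tested. Of all calls 31.7% were rises in RPKM, 62.3% after median-ratio scaling and 65.2% after quantile normalization, and no member passed under any of the alternatives run. Egr2 on high fat diet was lower in Ucp1-KO iWAT, beside 0.0881% of all genes called lower. Egr2 ran from 1.55 to 2.06 RPKM (median 1.79) in Ucp1-KO iWAT, against 1.85 to 3.16 RPKM (median 2.85) in wild-type iWAT (-0.39 ± 0.09, adjusted p = 0.033), and 5 Ucp1-KO libraries lay below the lowest wild-type library. Of the few calls over all genes in this comparison 68.9% were rises in RPKM, 85.4% after median-ratio scaling and 88.7% after quantile normalization. Egr2 lost its call without library 81, 82, 83, 84, 86, 88, 91, 94 or 96 (-0.40 to -0.37, adjusted p = 0.051 to 0.081). The call of Egr2 was lost with a pseudocount of 0.1, with transcript rows summed, in a fit of only the groups compared and after either scaling (-0.54 to -0.34). Egr1 passed with array weights (-0.75).

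Between the depots, Nr4a1 was higher in iBAT than in iWAT in all 6 combinations of genotype and condition, with differences between 1.03 (wild-type, high fat diet) and 2.76 (Ucp1-KO, high fat diet). In Ucp1-KO mice at 30 °C on control diet Nr4a1 ran from 45.9 to 98.6 RPKM (median 48.5) in iBAT, against 5.35 to 16.6 RPKM (median 7.56) in iWAT (2.62 ± 0.24, adjusted p = 1.8e-16). In wild-type mice at 30 °C it ran from 11.9 to 64.5 RPKM (median 27.3) in iBAT, against 5.44 to 17.2 RPKM (median 7.85) in iWAT (1.57 ± 0.24, adjusted p = 1.1e-08), with 7 iBAT libraries above all iWAT libraries. These fits treat the depots as independent samples, although they came from the same animals.

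In Ucp1-KO mice 3, 6 and 7 members were higher in iBAT than in iWAT at 20 °C, at 30 °C on control diet and on high fat diet. At 20 °C 3 were higher, beside 20.2% of all genes, and 2 lower, beside 42.7%: Jun (0.62), Nr4a1 (1.68) and Dusp1 (0.97) against Junb (-0.58) and Egr2 (-0.55). That balance depended on the setting: it was 3 higher and 4 lower with a pseudocount of 0.1, 3 higher and 3 lower with array weights or in a fit of only the groups compared, and 4 higher and 2 lower after either scaling. At 30 °C on control diet 6 were higher, beside 26.3% of all genes, and none was lower. Jun had 54.5 ± 8.01 RPKM in iBAT and 24.5 ± 12.1 RPKM in iWAT (mean ± SD, n = 8 each), and Dusp1 had 86.5 ± 10.4 RPKM in iBAT and 39.9 ± 8.16 RPKM in iWAT. Of the 9 genes 7 were higher on high fat diet, beside 24.5% of all genes, with Fos (-0.10) and Fosb (-0.22) the exceptions. Rises made up 32.1%, 42.4% and 35.3% of all calls at 20 °C, at 30 °C on control diet and on high fat diet in RPKM, and 55.3%, 51.2% and 49.7% after quantile normalization. At 20 °C, Fos passed without library 14, 16, 58 or 61 (-0.99 to -0.94, adjusted p = 0.030 to 0.043). On control diet at 30 °C, Egr2 lost its call without library 26 (0.32, adjusted p = 0.054). Egr1 passed without library 27, 73, 74 or 77 (0.74 to 0.82, adjusted p = 0.028 to 0.047). On high fat diet, Egr1 lost its call without library 44, 48, 90 or 94 (0.59 to 0.71, adjusted p = 0.055 to 0.11). Jun lost its call without library 48, 92, 93 or 95 (0.47 to 0.51, adjusted p = 0.052 to 0.070). At 20 °C, Fos passed with a pseudocount of 0.1, with array weights and in a fit of only the groups compared (-1.0045 to -0.84). Fosb passed with a pseudocount of 0.1 (-1.20). Ier2 passed after either scaling (0.32 to 0.33). Values over 1.5 times apart, with the call kept, were found for Egr2 (-1.32 with a pseudocount of 0.1, -0.31 after quantile normalization and -1.02 with transcript rows summed). On control diet at 30 °C, Egr2 lost its call with a pseudocount of 0.1, with transcript rows summed and in a fit of only the groups compared (0.41 to 0.52). Egr1 passed with array weights and in a fit of only the groups compared (0.69 to 0.71). The size but not the call of Egr2 (0.62 with array weights) moved by over 1.5 times. With high fat diet, Jun lost its call after quantile normalization and with array weights (0.45 to 0.47). Egr1 lost its call after quantile normalization and with transcript rows summed (0.70 to 0.75). Markers of other cells differed between the depots too, those called higher and lower at 30 °C on control diet being 3 and 2 of 9 for macrophages, 2 and 1 of 5 for neutrophils, 0 and 8 of 8 for lymphocytes, 7 and 0 of 8 for endothelial cells, 0 and 5 of 7 for fibroblasts and progenitors, 4 and 0 of 6 for smooth muscle and pericytes, 0 and 1 of 4 for epithelium, 0 and 4 of 6 for adipocytes and 8 and 0 of 8 for brown adipocytes. Their part was not tested.

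In wild-type mice the counts of members lower in iBAT were below the share of all genes in each condition and changed with the scaling. At 20 °C 5 of 9 were lower, beside 64.4% of all genes, and Nr4a1 was higher, beside 15.8%. Egr2 ran from 0.193 to 0.345 RPKM (median 0.238) in iBAT, against 1.48 to 2.34 RPKM (median 1.87) in iWAT (-1.19 ± 0.15, adjusted p = 1.4e-11), which amounted to 5.99 to 11.0 reads a library in iBAT. Junb ran from 4.85 to 11.8 RPKM (median 7.83) in iBAT, against 15.1 to 28.4 RPKM (median 19.1) in iWAT (-1.24 ± 0.17, adjusted p = 2.8e-10). The ranges were apart for both, and for 43.3% of all genes in that direction. At 30 °C on control diet 4 of 9 were lower, beside 61.8% of all genes, namely Fos (-1.07), Junb (-0.81), Egr2 (-1.21) and Ier2 (-0.30), and 2 were higher, beside 19.5%, namely Nr4a1 (1.57) and Dusp1 (0.58). The direction of Ier2 depended on the scaling: its difference was 0.07 after median-ratio scaling and 0.11 after quantile normalization, neither past the threshold. With high fat diet 5 were lower, beside 61.9%, and Nr4a1 higher, beside 16.7%. After median-ratio scaling the counts were 1 higher and 4 lower at 20 °C, 3 higher and 2 lower at 30 °C on control diet and 2 higher and 2 lower on high fat diet, and after quantile normalization 1 higher and 3 lower, 3 higher and 2 lower and 2 higher and 1 lower in the same conditions. The median difference over all genes lay between -0.43 and -0.40 in these 3 comparisons, and between -0.17 and -0.12 after median-ratio scaling. Rises made up 19.8% to 24.0% of all calls in RPKM, 39.2% to 40.8% after median-ratio scaling and 53.8% to 56.9% after quantile normalization. On control diet at 30 °C, Fos lost its call without library 17 (-0.82, adjusted p = 0.055). On high fat diet, Jun lost its call without library 33, 35, 37, 38, 84, 86 or 87 (-0.50 to -0.27, adjusted p = 0.050 to 0.25). The call of Fos was lost without library 35 or 86 (-0.83 to -0.81, adjusted p = 0.054 to 0.060). Dusp1 passed without library 37, 38, 84, 86 or 87 (0.41 to 0.51, adjusted p = 0.0080 to 0.045). Fosb passed without library 85 or 88 (-0.92 to -0.89, adjusted p = 0.016 to 0.021). At 20 °C, Egr1 lost its call after either scaling (-0.57 to -0.45). The call of Ier2 was lost after quantile normalization (-0.19). A move of over 1.5 times with the call kept was seen for Egr2 (-2.49 with a pseudocount of 0.1, -0.62 after quantile normalization and -2.13 with transcript rows summed), Junb (-0.82 after median-ratio scaling and -0.74 after quantile normalization), Ier2 (-0.29 after median-ratio scaling) and Fos (-0.95 after quantile normalization). On control diet at 30 °C, Fos lost its call after either scaling (-0.72 to -0.56). Ier2 lost its call after either scaling (0.07 to 0.11). Jun passed after either scaling (0.58 to 0.71). Egr2 (-2.21 with a pseudocount of 0.1, -0.54 after quantile normalization and -1.93 with transcript rows summed), Junb (-0.43 after median-ratio scaling and -0.45 after quantile normalization) and Dusp1 (0.96 after median-ratio scaling) moved by over 1.5 times and kept their calls. With high fat diet, Jun lost its call without the filter on low values, in a fit of only the groups compared and after either scaling (-0.49 to -0.09). Fos lost its call after either scaling (-0.82 to -0.64). The call of Ier2 was lost after either scaling (-0.08 to -0.04). Egr2 lost its call after quantile normalization (-0.19). Dusp1 passed after either scaling (0.45 to 0.77). Fosb passed with array weights (-0.99). Values over 1.5 times apart, with the call kept, were found for Egr2 (-1.41 with a pseudocount of 0.1 and -1.30 with transcript rows summed) and Junb (-0.47 after median-ratio scaling and -0.56 after quantile normalization). Markers called higher and lower in iBAT at 30 °C on control diet were 0 and 9 of 9 for macrophages, 0 and 5 of 5 for neutrophils, 0 and 8 of 8 for lymphocytes, 3 and 3 of 8 for endothelial cells, 0 and 7 of 7 for fibroblasts and progenitors, 1 and 4 of 6 for smooth muscle and pericytes, 1 and 0 of 7 for skeletal muscle, 0 and 3 of 4 for epithelium, 0 and 4 of 6 for adipocytes and 8 and 0 of 8 for brown adipocytes, and their part was not tested.

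Across all 12 groups, the order of mean levels differed from gene to gene. Nr4a1 had its 6 highest means in the 6 iBAT groups, from 61.1 ± 20.8 RPKM in Ucp1-KO iBAT on high fat diet to 17.5 ± 7.99 RPKM in wild-type iBAT at 20 °C. Jun, Junb, Egr1, Egr2, Ier2 and Dusp1 were also highest in Ucp1-KO iBAT on high fat diet. Fos (73.6 ± 54.3 RPKM) and Fosb (16.7 ± 16.0 RPKM) were highest in wild-type iWAT on high fat diet. Per length, Dusp1 at 96.0 ± 21.7 RPKM was the most abundant member in Ucp1-KO iBAT on high fat diet and Egr2 at 3.42 ± 1.07 RPKM the least abundant there. All 9 genes had their lowest mean RPKM at 20 °C: Jun, Junb, Egr2, Ier2 and Dusp1 in wild-type iBAT, where Dusp1 was at 24.2 ± 8.99 RPKM, Fos, Fosb and Egr1 in Ucp1-KO iBAT, and Nr4a1 in wild-type iWAT. The orders were not drawn up again after another scaling. Median-ratio scaling divides by 0.756 to 0.832 in wild-type iBAT at 20 °C and by 1.04 to 1.16 in wild-type iWAT at 20 °C. An order across depots can therefore change with the scaling. Groups next to each other in these orders lay within their spread: the intervals of mean ± SD overlapped in all 11 neighbouring pairs of groups for 8 of the 9 genes. For Fosb they overlapped in 10 of 11, the exception being Ucp1-KO iWAT at 20 °C (0.690 ± 0.276 RPKM) above Ucp1-KO iBAT at 20 °C (0.254 ± 0.147 RPKM).

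The members differed widely in how much they varied among the 8 animals of a group. In iBAT the SD within groups on the log2 scale was 0.81 for Fos, 0.70 for Egr1, 0.64 for Fosb and 0.56 for Nr4a1, against a median of 0.20 over all genes tested, and 98.8% of genes had a smaller SD than Fos. Ier2 (0.25) and Jun (0.28) were nearer to the median gene. In iWAT Fosb (0.87) and Fos (0.81) varied most, above 98.7% and 98.4% of genes. Egr2 was the member of least spread there on this scale (0.17), with 32.3% of genes below it. The added 1 RPKM shrinks the log2 spread of so low a gene. The SD of Egr2 in RPKM was 10.0 to 32.4% of the mean in the iWAT groups, beside 10.4 to 24.7% for Ier2.

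Within groups many pairs of members went up and down together from animal to animal. Deviations from group means were correlated for all 36 pairs of members in each depot over 48 libraries, and p-values from 100000 permutations of libraries within groups were adjusted over the 72 pairs. The adjusted p was under 0.05 for 26 pairs in iBAT and 30 pairs in iWAT, all with r above 0, and the median r was 0.45 in iBAT and 0.59 in iWAT. Correlations for pairs of other genes were not computed, so whether these counts are particular to the members was not tested. The smallest p these permutations can give is 1e-05. Fos and Egr1 had r = 0.85 in iBAT and 0.91 in iWAT, and Fosb and Egr1 had r = 0.92 in iWAT, the highest of all pairs. Junb and Ier2 had r = 0.88 in iWAT and 0.45 in iBAT. Egr2 stood apart in iWAT, where 2 of its 8 pairs passed, with Junb (0.36) and Ier2 (0.31). It rested there on 13.0 to 134 reads a library. Depth and the added 1 RPKM limit so low a gene, and their part in its low r was not tested. Nr4a1 was the member of fewest passing pairs in iBAT, 3 of 8, with Dusp1 (0.51), Jun (0.38) and Ier2 (0.34). Of the 72 pairs 54 passed with Spearman's rho (median rho 0.50), and 51 passed with Pearson's r when the 2 libraries farthest from the median of the first gene were left out.

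**Figure D4:**
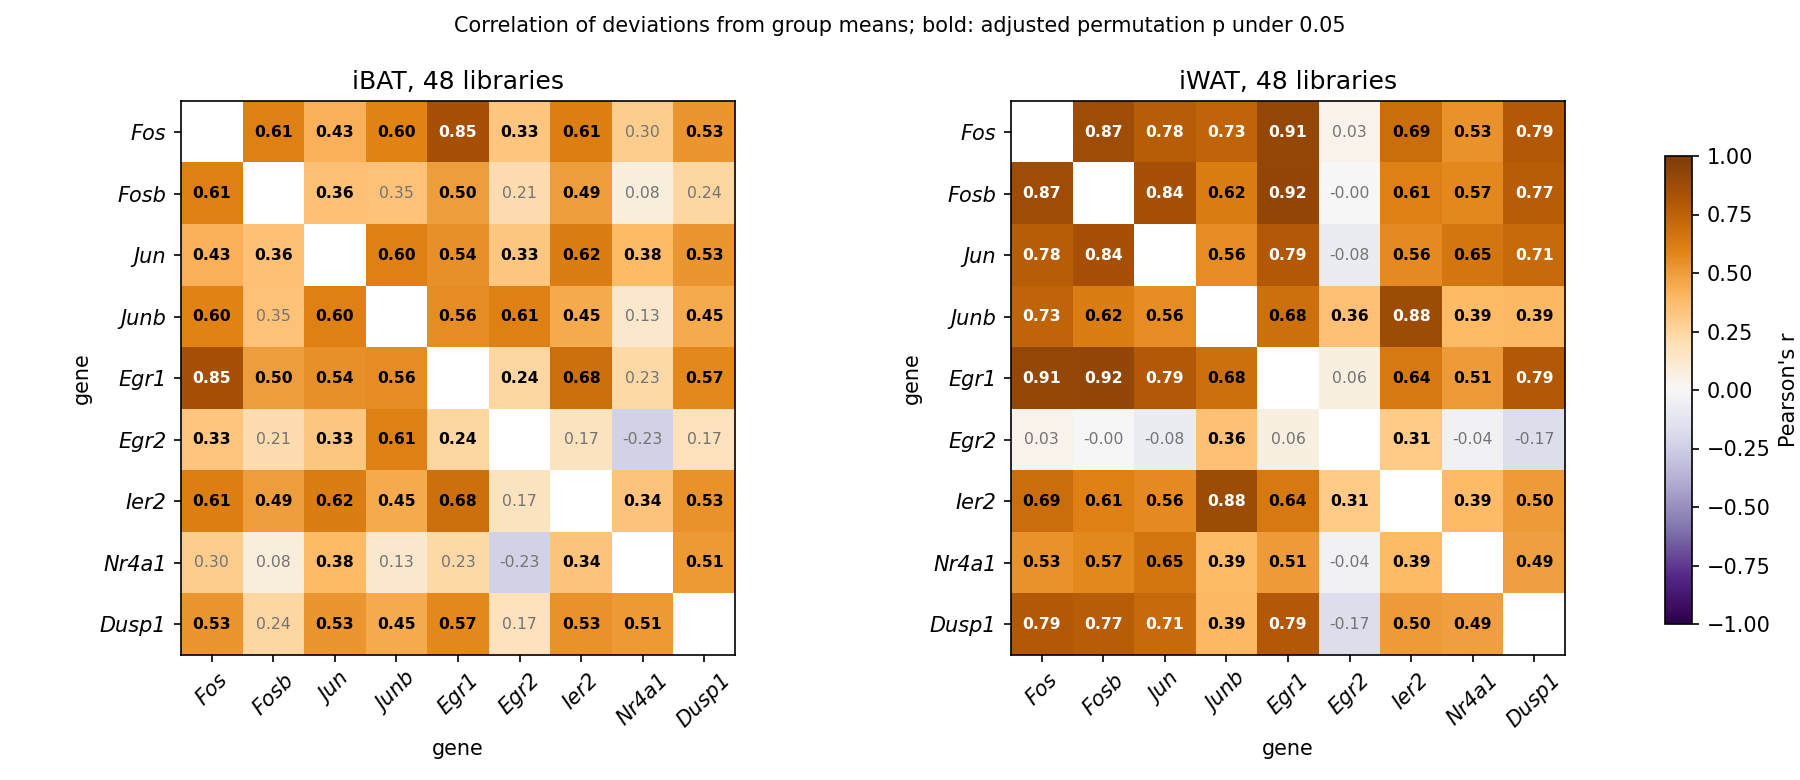
Pearson's r of the deviations from group means for each pair of the 9 genes over the 48 libraries of iBAT (left) and iWAT (right), bold where the adjusted permutation p was under 0.05. Fos, Fosb, Jun, Egr1 and Dusp1 form a block of high r in iWAT, with 0.92 for Fosb and Egr1, and Egr2 has r between -0.17 and 0.06 with these 5.

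Other genes were ranked by the correlation of their within-group deviations with the mean standardized deviation of the 9 members over the 48 libraries of a depot. In iBAT the highest of 14798 genes were Cyr61 (r = 0.81), Zfp36 (0.78), which encodes an mRNA-destabilizing protein, and Btg2 (0.68), all on the list of other early response genes, followed by Nipbl (0.62), a cohesin loader. In iWAT the first of 15888 genes was again Zfp36 (0.87), and Cyr61 (0.67), Ptgs2 (0.66), the inducible cyclooxygenase, the chemokine gene Cxcl1 (0.64), the kinase gene Sgk1 (0.63) and Klf6 (0.60) were among the first 12. The first 12 held 3 genes of that list in iBAT and 4 in iWAT, and the first 100 held 7 in iBAT and 12 in iWAT. The list as a whole was less close, with a median r of 0.32 in iBAT and 0.28 in iWAT. These correlations are descriptions over libraries that share their depth and composition, and they carry no p.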

How the data were processed

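The 96 samples are stranded mRNA libraries, per the labels' protocols, and are held in 1 table of 168326 transcripts. The authors deposited RPKM values, scaled to transcript length and library size. CASAVA and bcl2fastq appear in the submitters' processing notes, while the aligner, the counting step and the build were not given in the sources used here.

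Transcripts without an Entrez identifier (13.8%) were left out, and the transcript of highest mean stood for its symbol. A gene entered a fit when 8 or more of its libraries reached 0.5 RPKM, which left 14807 genes for iBAT, 15897 for iWAT and 16310 for both depots together. The logarithm log2(RPKM + 1) was fitted with limma 3.58.1 (R 4.3.3, intensity trend). P-values were adjusted by Benjamini-Hochberg over all genes of a comparison, with a threshold of 0.05. Each depot was fitted with its 6 group means, and the depots were compared in a fit of 12 group means. Groups and library numbers came from the labels, and replicates are separate animals per the series' design text. Correlations used Python 3.11.15 and 100000 permutations.

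Depth (8.90 to 19.2 M reads a library) came from the step between low values: 95.0 to 95.7% of values up to 20 reads were whole within 0.05 of a read, and 1 read on 1 kb was worth 0.0521 to 0.112 RPKM. The reads of Egr2 were computed from another of its transcript rows, which has a GENCODE length. That row had a mean of 1.72 RPKM, beside 1.73 RPKM for the row used elsewhere, and r = 0.9995 with it on the log2 scale. The highest correlation between libraries was 0.996, and none were merged. The fit was checked on simulated data.

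The members and gene lists were chosen with earlier results of these data known. Besides the members, at most 4 genes of smallest p per list and the 12 genes most like the members were named, with exceptions stated where they occur. Alternatives were a pseudocount of 0.1, no filter, summed transcripts, median-ratio scaling, quantile normalization, array weights, a fit of only the groups compared, and each library left out in turn.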

Additional observations from a re-analysis of the deposited data

Results flagged for a closer look

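In 7 of the 108 combinations of gene and group the highest or lowest library stood apart from the other 7 by Dixon's criterion, which chance meets in about 1 of 20 groups. In Ucp1-KO iWAT at 20 °C library 60 was high for Fosb at 1.28 RPKM and library 64 was low for Egr2 at 0.360 RPKM. In wild-type iWAT at 30 °C on control diet library 70 was high for both Fosb, at 3.18 RPKM, and Egr1, at 35.5 RPKM. In wild-type iWAT on high fat diet library 87 was low for Egr2 at 1.85 RPKM, although it was among the high libraries of that group for Fos. In Ucp1-KO iBAT at 30 °C on control diet library 32 was high for Nr4a1 at 98.6 RPKM. In wild-type iBAT at 20 °C library 2 was high for Egr2 at 0.345 RPKM, which is a few reads.

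In iBAT the interaction test of genotype and temperature passed for Fos (-1.59), Junb (-1.43), Egr2 (-1.31), Egr1 (-1.26) and Ier2 (-0.67), beside 40.5% of all genes in that direction. Their difference of 20 °C minus 30 °C was more negative in Ucp1-KO than in wild-type iBAT. Dusp1 (0.88) passed in the other direction, beside 11.9% of all genes, its difference being more negative in wild-type iBAT. In iWAT the test passed for Ier2 (-0.64), again more negative in Ucp1-KO mice, beside 11.1% of all genes. Egr1 in iBAT and Ier2 in iWAT lost their calls after median-ratio scaling and after quantile normalization.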

How the results depend on the processing

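Of the 104 calls of a member in a comparison, out of 216 combinations, 78 were kept under every alternative of scaling, filter, pseudocount, rows, weights and groups fitted, and 26 were lost under at least 1, most often under quantile normalization (21) and median-ratio scaling (16). Leaving out a library lost 17 calls and kept 87. The counts of members called that moved by more than 1.5 times were these. In the iBAT interaction of genotype and diet, 0 members became 1 after quantile normalization, 2 with array weights and 1 in a fit of only the groups compared. In the iWAT genotype comparison at 20 °C, 4 members, all lower, became 2 after median-ratio scaling, Egr2 lower and Dusp1 higher. With only the groups compared the 4 became 7, Dusp1 higher and the others lower. In the iWAT genotype comparison on high fat diet, 1 became 2 with array weights and 0 with a pseudocount of 0.1, after median-ratio scaling, after quantile normalization, with summed rows and with only the groups compared. For wild-type iWAT at 20 °C against 30 °C, 1 became 0 with a pseudocount of 0.1 and after both scalings, and 2 with array weights or only the groups compared. For high fat diet in Ucp1-KO iWAT, 4 became 7 with array weights. The iWAT interaction of genotype and temperature went to 2 with a pseudocount of 0.1 or only the groups compared, 3 with array weights and 0 after both scalings, against 1. That of genotype and diet had 1 with array weights, against 0. For iBAT against iWAT in wild-type mice on high fat diet, 6 became 3 after quantile normalization. The difference of Ier2 between iBAT and iWAT in wild-type mice at 30 °C turned round, to 0.0713 after median-ratio scaling and 0.11 after quantile normalization. The cause of these changes was not tested.

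With libraries left out in turn, the counts ran from 0 to 1 in the iBAT interaction of genotype and diet, from 0 to 2 in wild-type iWAT at 20 °C against 30 °C, from 1 to 3 in the iWAT interaction of genotype and temperature, and from 0 to 1 between genotypes in iWAT on high fat diet. No paired analysis was possible because each library has a number of its own, from 1 to 96, that no other group shares. Depth limits low genes: in iBAT at 20 °C Egr2 rested on 3.00 to 25.0 reads a library in Ucp1-KO mice and 5.99 to 11.0 reads in wild-type mice, and Fosb was listed at 0.0423 to 0.560 RPKM in Ucp1-KO mice.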
